A study of Capra hircus with 4 samples.

Results

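Heat shock proteins and DNAJ chaperones are the protein-folding machinery of the cell. Among 20326 goat genes measured, 89 belong to them by symbol, namely the HSPA, HSPB, HSPD, HSPE, HSPH and HSP90 genes, the DNAJA, DNAJB and DNAJC genes, BAG2 to BAG6, the heat shock factors HSF1, HSF2, HSF4 and HSF5, and the numbered CCT chaperonin subunits. Names beginning with HSPB also took in HSPBP1, HSPBAP1 and HSPB11, which are not small heat shock proteins and are kept apart. The RNA is from stem cells of the secondary hair follicle, which makes cashmere, grown in culture from back skin of the goat Capra hircus. There were 2 early anagen (April) and 2 mid anagen (October) libraries, each phase having 1 female and 1 male library. In anagen the follicle grows its hair. The labels give no treatment, genotype or age and no number of animals or passages per library, and month and phase cannot be told apart. The comparison asks how expression of these genes in the cultured cells differs between the phases.

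Chaperones bind unfolded stretches of other proteins and release them to fold. HSP70 proteins do so in cycles of ATP hydrolysis that DNAJ proteins start and that BAG proteins, HSPBP1 and the HSP110 proteins speed by releasing the nucleotide. HSP90 proteins take over partly folded clients such as kinases and receptors, chaperonins enclose a client in a ring-shaped cage, and small heat shock proteins hold clients without ATP. The cytosol, the endoplasmic reticulum and the mitochondrion each have their own set. HSF1 switches on the cytosolic set after heat, while a separate unfolded protein response acts on the set of the endoplasmic reticulum. In skin, HSPB1 is a well known product of keratinocytes.

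The values are deposited abundances per gene whose normalisation no label or file header states. They are not whole numbers and came with a transcript quantifier named, so they were read as length-normalised abundances on a common scale. Comparisons of level between genes, shares and ratios between genes below depend on that reading. The read depth behind them is unknown, and no counting interval can be given. Library totals were 1068430 (early female), 1186970 (early male), 933211 (mid female) and 844960 (mid male). Both mid totals lay below both early ones, so directions between phases can depend on the scale, and rescaled medians are given below. The 7 basal keratinocyte and bulge markers were present in all libraries, with summed values of 37799 and 42964 early against 18162 and 19471 mid. KRT14 and KRT5 carried that sum, while the bulge markers LHX2 (9.54 and 6.94 early against 31.7 and 32.1 mid, limma adjusted p = 0.0431) and SOX9 (101 and 82.5 early against 150 and 171 mid, adjusted p = 0.0839) lay higher at mid anagen. ITGB4 lay lower, at 718 and 721 early against 592 and 605 mid. ITGA6 (380 and 472.5 early against 366 and 390 mid) and TP63 (111 and 78.9 early against 138 and 83.2 mid) overlapped. Of the 7 genes, both mid libraries were thus higher for 2 and lower for 3. Fibroblast and dermal papilla markers moved with phase. The sum of the 8 genes was 0.844 (early female), 3.72 (early male), 268.8 (mid female) and 108 (mid male). All 8 were higher in both mid libraries, with FN1 called in limma (adjusted p = 0.0245) and PDGFRA under 1 throughout. DCN, a dermal matrix proteoglycan of that list, was at 0 in the early female. The immune marker PTPRC, the endothelial marker CDH5 and the melanocyte marker DCT were at 0 in all 4 libraries. Other genes of these lists were low, with CD68 (immune) at 2.397 to 4.41, PMEL (melanocyte) at 2.08 to 2.54 and PECAM1 and VWF (endothelial) under 1. The part of the fibroblast signal in any chaperone value was not tested. Fewer cells of a type and less RNA per cell cannot be told apart in such bulk samples.

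Of the 89 genes, 76 reached a value of 1 in at least 2 libraries and were tested. DNAJB8 and DNAJC5G were at 0 everywhere. The other 11 untested genes were CCT8L2, DNAJB3, DNAJB7, DNAJB13, DNAJC5B, DNAJC6, DNAJC12, HSF5, HSPA12A, HSPB7 and HSPB9, which reached 1 in at most 1 library. HSPA12A, an atypical HSP70 relative, was at 1.53 in the mid male and at 0.483 to 0.798 elsewhere. DNAJC6, the brain form of the clathrin-uncoating cofactor auxilin, was at 0.992 in the mid male and at most 0.118 elsewhere. Among the tested genes 2 reached 1 in only 1 phase, HSPB2 at mid and DNAJC22 at early anagen, so the filter fixed their direction. HSPA1A and BAG1 were not found by symbol.

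With phase as the only term, no chaperone gene passed the test between phases. Limma with Benjamini-Hochberg adjustment over all 12486 tested genes called 0 of the 76, against 0.304% of all tested genes (higher for 0.224%, lower for 0.0801%), and the smallest adjusted p among them was 0.0785. At an unadjusted p under 0.05 there were 19, of which 6 were higher and 13 lower at mid anagen. That is close to the 27.9% of all tested genes at the same limit (13.2% higher, 14.7% lower). The replicate number is the sex in both phases. With it as a block, limma called 2 members higher (BAG4, DNAJC18) and 3 lower (DNAJC9, HSPBP1, HSPE1), against 7.34% and 6.93% of all tested genes. With so few libraries, the block leaves less from which to measure each gene's own spread than the fit on phase alone. The count of called members thus depends on whether sex enters the fit. No label says that the number also marks related animals. Directions given below are those of the values, not of called changes.

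The plot of differences within each sex shows how the classes lay. Both mid libraries were below both early libraries for 29 tested members and above them for 15, against 30.9% and 31.5% of all tested genes. In the female and in the male pair alike, 36 members were lower and 17 higher at mid anagen, against 37.1% and 39.3% of all tested genes. Both sets of counts include DNAJC22 (lower) and HSPB2 (higher), whose direction the filter fixed. The median log2 difference over the 76 was -0.08 (-0.04 in the female and -0.22 in the male pair), against 0.01 for all tested genes. Differences here and below are on the log2(value + 1) scale and understate those of low genes. Abundance went along with direction in the whole table. Among the 19 chaperones with a mean of at least 100, 15 were lower in both pairs, and so were 62.3% of the 1342 genes that abundant. Among the 42 with a mean from 10 to 100, 16 were lower and 12 higher in both pairs, against 39.1% and 37.8% of such genes.

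**Figure D1:**
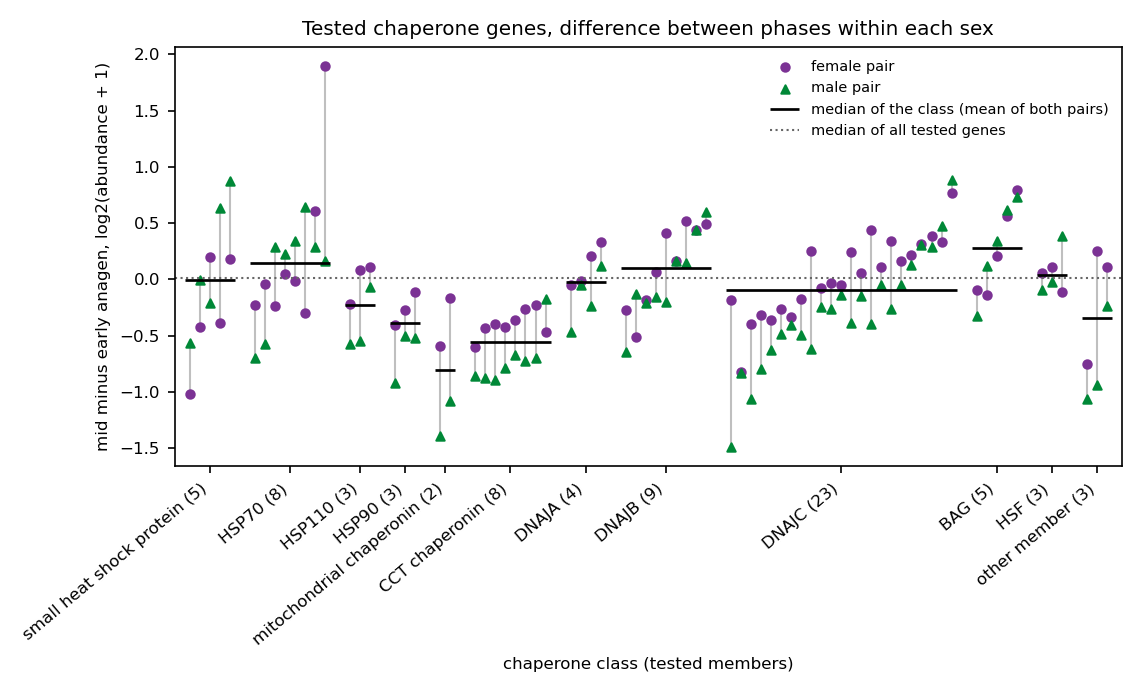
Difference between mid and early anagen for each of the 76 tested chaperone genes on the log2(value + 1) scale (y axis), grouped by class with the number of genes in brackets (x axis); circles are the female pair, triangles the male pair, and bars the class median. All 8 tested CCT genes, the 3 HSP90 genes and both mitochondrial chaperonins lie below 0 in both pairs, and HSPA5 stands at 1.90 in the female pair.

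HSPB1, the small heat shock protein also called HSP27 (GeneID 108633906), was by far the most abundant chaperone transcript. Its level was 5514 (early female), 3612 (early male), 2724 (mid female) and 2441 (mid male). Both mid libraries lay below both early ones, and the early female stood highest. The log2 difference was -0.79 (SE 0.35, limma adjusted p = 0.213, n = 2 per phase), and without the early female it was -0.49. HSPB1 was gene number 17 by abundance in the early female and number 45, 32 and 30 in the early male, mid female and mid male. It alone made up 41.6% of the summed chaperone abundance in the early female and 26.0%, 25.5% and 25.9% in the other libraries. Without HSPB1 the sum of the members was 7754 and 10259 early against 7953 and 6999 mid, so the libraries of the phases overlapped.

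The other small heat shock proteins were low. HSPB2, known from muscle, was at 0.951 and 0.749 early against 1.21 and 2.21 mid, here and below with the female before the male. HSPB6, a phosphorylated small heat shock protein of muscle, was at 4.87 and 4.97 early against 3.39 and 4.96 mid. The remaining tested members, HSPB3 and HSPB8, lay between 8.13 and 30.5 and overlapped between phases. The median over the 5 tested members was -0.01. The class median weighs each gene equally, so HSPB1 counts no more in it than HSPB6.

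**Figure D2:**
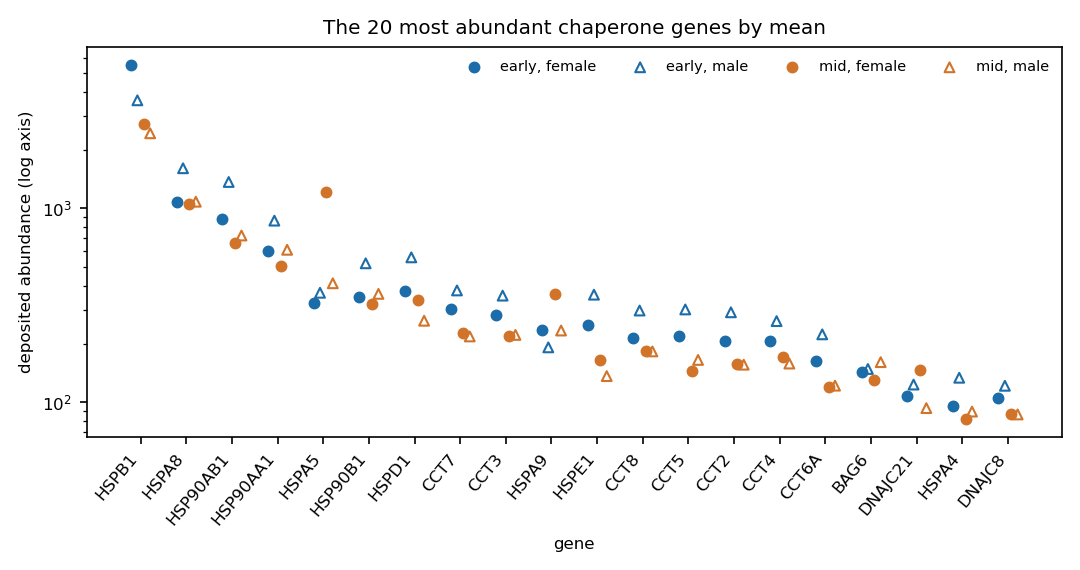
Deposited abundance (y axis, log scale) of the 20 chaperone genes with the highest mean, in the order of their means (x axis), with 1 point per library; filled circles are female, open triangles male, blue early and orange mid anagen. HSPB1 lies between 2441 and 5514, and HSPA5 in the mid female, at 1213, stands away from its other 3 values of 325 to 411.

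Of the cytosolic HSP70 genes, HSPA8, the constitutive HSC70 (GeneID 102182240), was second in abundance among the members. It was at 1081 (early female), 1612 (early male), 1049 (mid female) and 1083 (mid male). The early male alone stood high and the phases overlapped (log2 difference -0.31, SE 0.29, limma adjusted p = 0.514). Without the early male the difference was -0.020, and without the early female -0.60. HSPA14, a ribosome-associated HSP70, was at 68.3 and 80.8 early against 58.3 and 49.4 mid, lower in both mid libraries (adjusted p = 0.162). The remaining cytosolic members HSPA2, HSPA6 and HSPA12B were between 1.92 and 8.35 and overlapped between phases.

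The stress-inducible HSP70 genes HSP70.1 and LOC102178315 are outside the symbol rule here and were looked up after the other values were seen. HSP70.1 was at 128 and 87.8 early against 124 and 220 mid. LOC102178315, described in the files as heat shock 70 kDa protein 1B, was at 243 and 189 early against 204 and 327 mid. Both were highest in the mid male, and neither passed (limma adjusted p = 0.266 and 0.575). Near-identical copies can share reads, so the split between them is uncertain. Their sum was 371 and 277 early against 328 and 547 mid, again with overlap between the phases.

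The HSP110 genes encode HSP70-like proteins that release nucleotide from HSP70. HSPA4 was at 95.6 and 134 early against 82.2 and 89.6 mid, below both early values (adjusted p = 0.274). HSPH1 was at 47.9 and 78.2 early against 50.7 and 53.3 mid, and HSPA4L at 40.6 and 32.8 early against 43.8 and 31.2 mid, both with overlap. HSPH1 had its highest value in the same library as HSPA8, the early male. The ratio of HSPA8 to HSPH1 within a library was 22.6, 20.6, 20.7 and 20.3, in the order early female, early male, mid female and mid male.

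All 3 HSP90 genes had lower values at mid anagen in both pairs. So did 37.1% of all tested genes and 62.3% of those with a mean of at least 100. HSP90AB1, the constitutive cytosolic form (GeneID 100861006), was at 885 (early female), 1369 (early male), 666 (mid female) and 725 (mid male). Both mid values were below both early ones (log2 difference -0.66, SE 0.29, limma adjusted p = 0.203). Without the early male the difference was -0.35. HSP90AA1, the inducible cytosolic form, was at 605 and 865 early against 502 and 612 mid, and the mid male lay above the early female. HSP90B1, the form of the endoplasmic reticulum also called GRP94, was at 348 and 521 early against 322 and 363 mid, also with overlap. Within a library HSP90AB1 exceeded HSP90AA1 by a ratio of 1.46 and 1.58 early against 1.33 and 1.18 mid, a ratio that does not depend on the scaling of libraries.

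The CCT chaperonin, also called TRiC, folds actin and tubulin in a ring of different subunits. All 8 tested CCT genes were lower in both pairs, and for 7 of them both mid libraries lay below both early ones, against 37.1% and 30.9% of all tested genes. Among all genes with a mean of at least 100, 62.3% were lower in both pairs. The median log2 difference of the 8 CCT genes was -0.56 (-0.41 in the female and -0.75 in the male pair), and 6 had an unadjusted p under 0.05, against 14.7% of all tested genes on the lower side. CCT5 (GeneID 102169799) was at 219 and 301 early against 144 and 165 mid (log2 difference -0.73, SE 0.22, limma adjusted p = 0.116). CCT6A was at 162 and 224 early against 120 and 122 mid, and CCT7 at 303 and 378 early against 227 and 219 mid. CCT2, CCT3, CCT4 and CCT8, named after their values were seen, ran from 207 to 355 early and from 156 to 223 mid. Only CCT6B, the testis form, overlapped between phases, at 2.24 and 1.19 early against 1.34 and 0.944 mid.

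Over CCT2, CCT3, CCT4, CCT5, CCT6A, CCT7 and CCT8 the mean level was 228 and 301 early against 175 and 175 mid. The highest of these 7 exceeded the lowest by a factor of 1.87 and 1.68 early against 1.88 and 1.83 mid. The order of the subunits was not fixed. CCT5 was above CCT8 early, at 219 and 301 beside 215 and 297, and below it at mid anagen, at 144 and 165 beside 184 and 183. TCP1, the subunit whose symbol lies outside the rule, was at 324 and 479 early against 241 and 242 mid. The mid libraries were thus near each other for these genes while the early male stood above the early female.

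**Figure D3:**
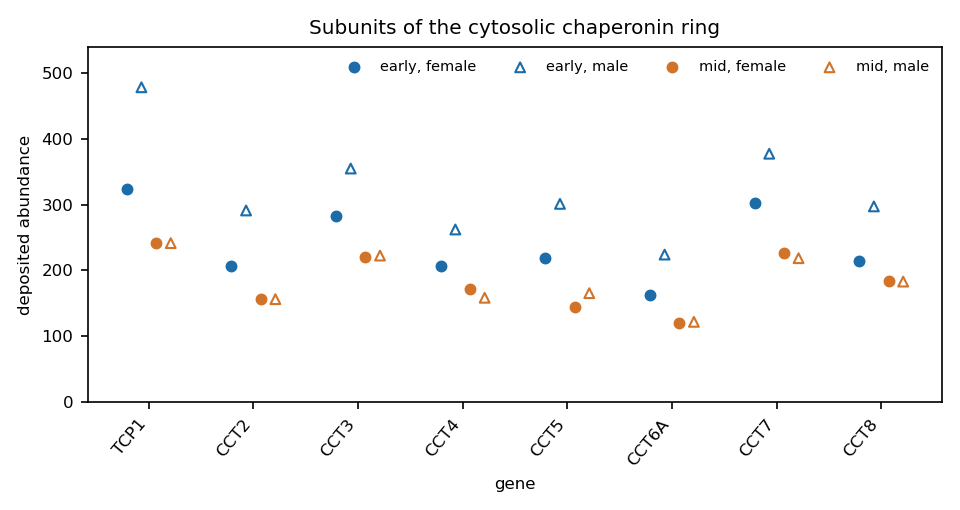
Deposited abundance (y axis, from 0) of TCP1 and 7 CCT subunits (x axis) with 1 point per library; filled circles are female, open triangles male, blue early and orange mid anagen. For each subunit the orange points lie below both blue points, and the early male is the highest library, at 479 for TCP1.

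Genes that work beside these cytosolic chaperones came from a list of 17. None passed the test (0 of 17), 10 had an unadjusted p under 0.05, all lower, and 14 had both mid libraries below both early ones (14.7% and 30.9% of all tested genes). Their median log2 difference was -0.69. In both pairs 15 were lower, against 37.1% of all tested genes and 62.3% of those with a mean of at least 100. CHORDC1 was higher in both pairs, and for ST13 the pairs differed in direction. The list includes TCP1, shown with the CCT subunits above, and several subunits of prefoldin, so its genes are not separate cases. PFDN2, a subunit of prefoldin, which hands actin and tubulin to CCT, was at 128 and 193 early against 87.1 and 60.7 mid. PFDN1, another subunit, was at 136 and 170 early against 95.6 and 70.5 mid. PTGES3, the HSP90 co-chaperone p23, was at 340 and 395 early against 233 and 208 mid. Their limma adjusted p was 0.0915, 0.0915 and 0.0944.

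The DNAJA and DNAJB proteins are the general J-domain partners of HSP70. DNAJA1 was higher in both mid libraries, at 85.0 and 91.9 early against 107 and 99.8 mid (limma adjusted p = 0.373). DNAJA4 hardly varied, at 20.4 and 20.2 early against 20.2 and 19.5 mid. DNAJB1, the main heat-inducible J protein, was at 79.2 and 87.4 early against 69.8 and 75.5 mid, lower in both mid libraries (adjusted p = 0.441). DNAJB4 went the other way, at 12.2 and 12.0 early against 17.7 and 18.7 mid (GeneID 102175354, log2 difference 0.55, SE 0.14, adjusted p = 0.0915). Its phases did not overlap and its replicates were close. DNAJB6, a suppressor of protein aggregation, was at 70.8 and 79.9 early against 94.3 and 69.2 mid, so the sexes differed in direction. The class medians were -0.02 for the 4 DNAJA genes and 0.10 for the 9 tested DNAJB genes. Leaving out 1 library turned the sign of both, to 0.044 for DNAJA without the mid male and -0.051 for DNAJB without the mid female.

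DNAJC proteins are diverse J proteins with special tasks. Of 23 tested, both mid libraries were lower for 11 and higher for 5 (30.9% and 31.5% of all tested genes), with a median of -0.09. The 11 include DNAJC22, whose direction the filter fixed. DNAJC9, a histone chaperone that brings HSP70 to histones (GeneID 102181926), was at 24.3 and 29.4 early against 13.3 and 16.1 mid. Its log2 difference was -0.83 (SE 0.18, limma adjusted p = 0.0785), the smallest adjusted p of all members, and both sexes gave -0.83. DNAJC21, a ribosome biogenesis factor, was at 108 and 123 early against 147 and 93.3 mid, with the mid libraries on either side of the early ones. DNAJC24, a diphthamide synthesis gene picked out with its values in view, was at 51.3 and 65.8 early against 45.1 and 22.8 mid. Its lowest value was the mid male. Without the mid female library DNAJC24 passed on the lower side, beside 3.22% of all tested genes called lower there.

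Of the 5 BAG genes, 3 had higher values at mid anagen in both pairs and 1 lower, and none passed with phase as the only term. BAG3, a partner of HSPB8 and HSP70 in selective autophagy (GeneID 102168602), was at 78.8 and 68.1 early against 117 and 105 mid (log2 difference 0.59, SE 0.16, limma adjusted p = 0.104). BAG4, a silencer of death receptors, was at 14.5 and 11.3 early against 25.9 and 19.4 mid (log2 difference 0.77, SE 0.21, adjusted p = 0.0997). BAG5 was at 21.9 and 25.5 early against 25.6 and 32.7 mid, the mid female being only just above the early male. BAG6, which guards membrane proteins on their way to the membrane, was at 143 and 149 early against 131 and 161 mid, with overlap. BAG2, named on sight of its values, was at 19.5 and 26.4 early against 18.3 and 20.9 mid, also with overlap. Both mid values exceeded both early ones for 3 of the 5 genes, against 31.5% of all tested genes. The median was 0.28, and ran from 0.11 (without the mid male) to 0.45 (without the mid female). With each library rescaled to a common total, BAG3 and BAG4 passed and were the only members to do so, with a smallest limma adjusted p of 0.0481, beside 4.55% of all tested genes called higher in that fit. That rescaling moved the median of all genes by 0.31. Relative to all genes the BAG median was then 0.29, against 0.27 as deposited.

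HSPBP1, a nucleotide exchange factor of HSP70 (GeneID 102186044), lay on the lower side. It was at 52.5 and 75.8 early against 30.8 and 35.9 mid (log2 difference -0.90, SE 0.22, limma adjusted p = 0.0861). HSPBAP1 was at 3.78 and 3.93 early against 4.18 and 3.18 mid. HSPB11, an intraflagellar transport subunit, was at 10.5, 11.7 and 12.7 in the early female, early male and mid female and at 5.66 in the mid male.

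None of the 3 tested heat shock factors separated the phases. HSF1, the master regulator of the heat shock response (GeneID 102178552), was at 66.6 and 74.4 early against 69.4 and 69.8 mid, a log2 difference of -0.02 (SE 0.15, limma adjusted p = 0.956). HSF2 was at 10.6 and 10.9 early against 11.5 and 10.7 mid. HSF4, known from the lens, was at 4.38 and 2.75 early against 3.98 and 3.90 mid. For each of these 3 genes the phases overlapped and the sexes differed in direction.

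By compartment, the median log2 difference was -0.19 over 40 cytosolic, 0.24 over 12 endoplasmic reticulum and -0.35 over 8 mitochondrial tested members, against 0.01 for all tested genes. The other 16 tested members were not placed in a compartment and had a median of -0.07. Rescaling to a common total moved the median of all genes by 0.31, to 0.32, and the compartments to 0.15, 0.56 and -0.03. Relative to all genes the cytosolic, endoplasmic reticulum and mitochondrial medians were then -0.17, 0.24 and -0.35, against -0.20, 0.23 and -0.36 as deposited. The cytosolic median was less steady. It was -0.046 with the trend on genomic span removed (-0.065 relative to all genes), -0.039 with no filter and -0.065 without the early male. The mitochondrial median ran from -0.50 (without the early female) to -0.20 (without the early male).

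In the endoplasmic reticulum, HSPA5 (BiP or GRP78, GeneID 102185663), the HSP70 of this compartment and sensor of unfolded protein, had the largest log2 difference of all members, and it rested on 1 library. It was at 325 (early female), 367 (early male), 1213 (mid female) and 411 (mid male). The mid female stood 3.73-fold above the early female, whereas the mid male was 1.12-fold above the early male. The log2 difference was 1.03 (SE 0.51, limma adjusted p = 0.249), and without the mid female library it was 0.25. Without the mid male library it was 1.81, with the high mid female as the only mid value and so no spread at mid anagen. The ratio of HSPA5 to HSP90B1 within a library was 0.933 and 0.705 early, and 3.77 and 1.13 mid.

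The partners of HSPA5 did not move as one. DNAJC3, also known as p58IPK, was at 30.9 and 27.8 early against 39.2 and 39.1 mid, and DNAJB9, or ERdj4, at 9.20 and 7.73 early against 12.9 and 10.9 mid. Both were higher in both mid libraries (limma adjusted p = 0.147 and 0.168). HSPA13, the other HSP70 of this compartment, overlapped between phases, at 17.2 and 12.7 against 17.8 and 15.0 (named after its values were known). DNAJC18, a membrane J protein, was at 5.61 and 3.83 early against 10.3 and 7.89 mid (log2 difference 0.82, SE 0.23, limma adjusted p = 0.102). DNAJB11, or ERdj3, which helps HSPA5 on newly made secretory proteins, was lower, at 46.5 and 60.9 early against 38.2 and 38.6 mid (adjusted p = 0.173). Over the 12 members, both mid libraries were higher for 7 and lower for 2 (31.5% and 30.9% of all tested genes).

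The related genes of the endoplasmic reticulum also lay on both sides. Of 20 listed, 0 passed in limma. At an unadjusted p under 0.05, 1 was higher and 2 lower, against 13.2% and 14.7% of all tested genes. In both pairs 9 were higher and 9 lower, against 39.3% and 37.1% of all tested genes, and the median was 0.00. SDF2L1, a partner of DNAJB11, was at 76.0 and 141 early against 27.5 and 37.5 mid (log2 difference -1.66, SE 0.33, limma adjusted p = 0.0766). MANF, a secreted stress protein that binds HSPA5, was at 174 and 271 early against 67.6 and 82.6 mid (log2 difference -1.53, SE 0.26, adjusted p = 0.0724). HERPUD1, of the degradation machinery, was at 113 and 73.3 early against 159 and 141 mid (adjusted p = 0.141). DDIT3, the stress factor CHOP, was named after its values were seen. It was highest in the mid female, at 73.5 against 25.5 to 37.9 elsewhere. XBP1, a transcription factor of the unfolded protein response also named in that way, was at 125 and 114 early against 123 and 111 mid.

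**Figure D4:**
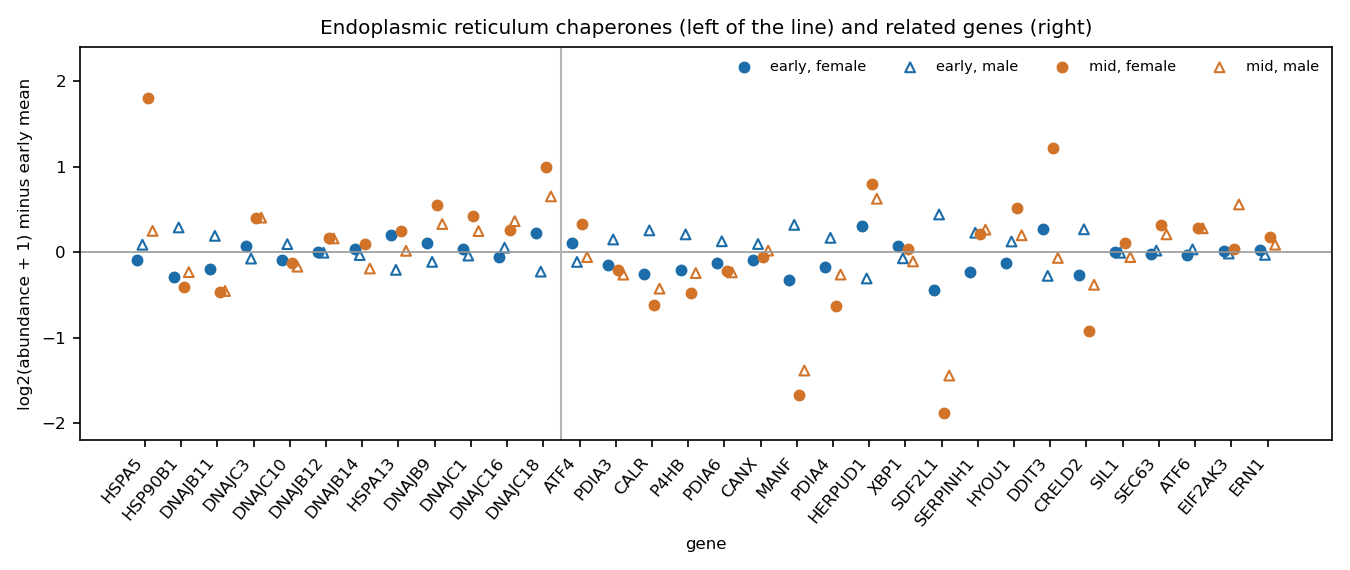
Level of each endoplasmic reticulum chaperone (left of the vertical line) and related gene (right) in each library as log2(value + 1) minus the mean of the early libraries (y axis), ordered by abundance within each set (x axis); filled circles are female, open triangles male, blue early and orange mid anagen. HSPA5 and DDIT3 are high in the mid female, while MANF and SDF2L1 are below the early libraries in both mid libraries.

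In the mitochondrion, 7 of 8 tested members had both mid libraries below both early ones, against 30.9% of all tested genes. HSPE1, the chaperonin cap also called HSP10 (GeneID 102173048), was at 251 and 359 early against 166 and 137 mid. Its log2 difference was -0.99 (SE 0.24, limma adjusted p = 0.0862), with -0.59 in the female and -1.39 in the male pair. HSPD1, the HSP60 ring that HSPE1 closes, was at 377 and 559 early against 337 and 263 mid (log2 difference -0.62, SE 0.27, adjusted p = 0.201). Without the early male the HSPD1 difference was -0.34. The ratio of HSPD1 to HSPE1 was 1.502 and 1.56 early against 2.03 and 1.93 mid, so the mid libraries held relatively less HSPE1. The 2 genes overlap in RefSeq's goat gene table (ARS1.2), and how shared reads were assigned was not given in sources used here.

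DNAJC19, a part of the import motor of the inner membrane, was at 78.8 and 85.9 early against 59.7 and 40.6 mid (log2 difference -0.73, SE 0.22, limma adjusted p = 0.116). With 1 library left out, the difference ran from -0.999 (without the mid female) to -0.46 (without the mid male). Each such fit leaves a phase with a single library, so that phase adds no spread. DNAJA3, a mitochondrial J protein also called TID1, was at 45.9 and 54.4 early against 44.2 and 39.2 mid. HSPA9, or mortalin, the mitochondrial HSP70, was the exception, at 237 and 192 early against 363 and 235 mid. Like HSPA5 it was highest in the mid female, and the mid male lay just below the early female (limma adjusted p = 0.321). Of 10 related mitochondrial genes 0 passed in limma, 4 had an unadjusted p under 0.05, all lower (14.7% of all tested genes), and the median was -0.16. TRAP1, the mitochondrial HSP90, was at 92.1 and 105 early against 62.1 and 68.8 mid. HSCB, a J protein for iron-sulfur clusters, was at 46.1 and 46.5 early against 33.2 and 20.01 mid. GRPEL1, which releases nucleotide from HSPA9, was at 38.8 and 48.9 early against 30.9 and 32.0 mid.

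The make-up of the chaperone transcripts does not depend on the scaling of libraries. The 89 genes held 1.24% and 1.17% of the library total early and 1.14% and 1.12% mid. Within that sum the HSP70 genes took 13.2% and 16.4% early against 25.4% and 19.2% mid, so both mid libraries were higher. The BAG genes took 2.10% and 2.02% early against 2.97% and 3.59% mid. HSP90 genes took 13.9% and 19.9% early against 14.0% and 18.0% mid, and CCT genes 12.1% and 15.2% early against 11.5% and 13.0% mid, both with overlap. Endoplasmic reticulum members took 6.58% and 7.89% early against 16.4% and 10.4% mid. These shares depend on each other, and HSPB1 in the early female and HSPA5 in the mid female weigh on them most.

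**Figure D5:**
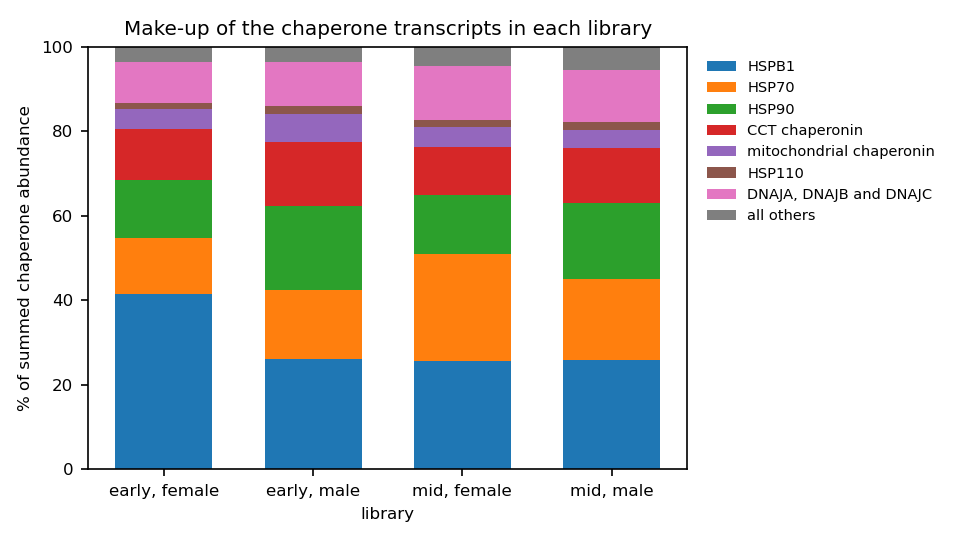
Share of the summed abundance of the 89 chaperone genes (y axis, %) taken by HSPB1 and by each class in each library (x axis, 1 bar per library). HSPB1 takes 41.6% in the early female and 25.5% to 26.0% elsewhere, and the HSP70 genes take 25.4% in the mid female.

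Within a phase, the libraries of the 2 sexes differed too. Of the 76 tested members, 55 (72.4%) were higher in the early male than in the early female, against 53.2% of all tested genes. The median log2 difference of early male over early female was 0.17 for the members, 0.58 for HSP90, 0.54 for the mitochondrial chaperonins and 0.40 for CCT genes. At mid anagen 30 of 76 (39.5%) were higher in the male, against 48.4% of all tested genes. For HSP90 and CCT genes the difference between the early libraries was therefore of the same order as the difference between the phases.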

How the data were processed

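The deposited values are a signal, an abundance per gene. Neither labels nor file headers state its normalisation. From the values and the tools named, it was taken to be length-normalised and scaled between libraries. The submitters' processing notes list kallisto 0.46.1 and sleuth 0.30.0. Build, annotation and how shared reads were handled were not given in the sources used here. Read depth is unknown. Each of the 4 libraries gave 1 value for each of 20326 genes.

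Values were taken as log2(value + 1), and genes with at least 1 in at least 2 libraries were fitted in limma 3.58.1 (R 4.3.3) with an intensity trend and phase as the only term. P-values were adjusted by Benjamini-Hochberg over all 12486 genes, with a threshold of 0.05. The fit was also run on simulated data with independent noise and no difference between the sexes. That run checked the code and says nothing on the spread of these libraries. The female and male pair differences are values without a test. P-values measure the spread between these libraries, which includes the difference between the sexes. Alternatives were other pseudocounts and filters, rescaling to a common total, a span correction, leaving out each library, a sex block and no intensity trend.

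Members, classes and lists were chosen with earlier results of these data known. The text names called members, the most abundant and the 3 with the smallest p in each class, 22 fixed names, and 3 related genes per list; others are said to be named later, or stand in ranges. All 89 members were found in the RefSeq table of ARS1.2, where 16 overlap another gene. The planned motif count was not made, since promoter sequences were not used here.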

Additional observations from a re-analysis of the deposited data

Results flagged for a closer look

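For 10 of the 41 members chosen for naming, the female and the male pair moved in opposite directions between phases. The pairs were opposite or zero for 2936 of all 12486 tested genes and for 23 of the 76 tested members. With 1 library per sex and phase the difference between the sexes was not tested. The log2 differences in the female and male pair were 0.253 and -0.937 for HSPB11, 0.438 and -0.4 for DNAJC21, 0.41 and -0.204 for DNAJB6, 0.0821 and -0.544 for HSPH1, and 0.115 and -0.239 for HSPBAP1. They were 0.108 and -0.0709 for HSPA4L, 0.0591 and -0.0908 for HSF1, 0.112 and -0.0238 for HSF2, -0.134 and 0.116 for BAG6, and -0.113 and 0.387 for HSF4.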

How the results depend on the processing

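With phase as the only term, 38 genes were called and 0 members. Over all genes the count was 18 with a pseudocount of 0.1, 0 without a filter, 651 rescaled to a common total and 0 to 733 without 1 library. Rescaled, 2 members were called (BAG3 and BAG4, higher). Without the mid female library 2 were called (DNAJC19 and DNAJC24, lower), without the mid male library 1 (HSPA5, higher), and without either early library 0, a range of 0 to 2. These fits take the spread of a single library from the other phase. The cause was not tested. With the replicate number, which is the sex, as a block, 1782 genes and 5 members were called, BAG4 and DNAJC18 higher and DNAJC9, HSPBP1 and HSPE1 lower, beside 7.34% and 6.93% of all genes. The labels do not say that a number marks related animals. Deviations from the phase mean correlated at 0.292 across genes between the female libraries of the phases, and the male libraries give the same by construction. A shared sex difference and related animals cannot be told apart by that value.

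Rescaled, the medians were 0.61 for BAG, -0.22 for CCT, 0.31 for DNAJA, 0.44 for DNAJB, 0.18 for DNAJC, 0.36 for HSF, 0.43 for HSP70, -0.042 for HSP90, 0.30 for small heat shock proteins, 0.15 for cytosol, 0.56 for the endoplasmic reticulum and -0.025 for the mitochondrion, beside a shift of 0.31 in all genes. With the trend on genomic span removed they were 0.41 for BAG, -0.046 for cytosol and 0.20 for the endoplasmic reticulum. With a pseudocount of 5 they were -0.12 for cytosol and 0.18 for the endoplasmic reticulum, and without a filter -0.039 for cytosol. Without 1 library the medians ran from 0.11 to 0.45 for BAG, -0.73 to -0.41 for CCT, -0.12 to 0.24 for HSP70, -0.64 to -0.13 for HSP90, -0.58 to -0.13 for HSP110, -0.18 to -0.065 for cytosol 0.20 to 0.30 for the endoplasmic reticulum, -0.50 to -0.20 for the mitochondrion, -0.093 to 0.044 for DNAJA, -0.051 to 0.17 for DNAJB, -0.25 to -0.0073 for DNAJC and -0.20 to 0.13 for small heat shock proteins.

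None of the named members with a sign change was called. Rescaled, log2 differences became 0.33 for BAG6, 0.077 for DNAJA3, 0.29 for DNAJA4, 0.14 for DNAJB1, 0.32 for HSF1, 0.11 for HSPH1, 0.034 for HSPA8, 0.024 for HSP90B1, 0.21 for HSPBAP1 and 0.071 for HSPB6. With the span trend removed they became 0.083 for BAG6, 0.013 for DNAJA4, 0.011 for DNAJB1, 0.021 for HSF1, -0.055 for HSPA4L and 0.058 for HSPB6. Without 1 library they ran from -0.16 to 0.14 for BAG6, -0.12 to 0.32 for DNAJB6, -0.30 to 0.34 for DNAJC21, -0.095 to 0.064 for HSF1, -0.0018 to 0.090 for HSF2, -0.12 to 0.40 for HSF4, -0.22 to 0.26 for HSPA4L, -0.58 to 0.12 for HSPH1, -0.86 to 0.18 for HSPB11, -0.22 to 0.093 for HSPBAP1 and -0.43 to 0.0094 for HSPB6. Read depth is unknown, so the precision of low values cannot be given.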
